A study of Rattus norvegicus with 4 samples.

Results

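The microRNA (miRNA) miR-210 is followed here through the fracture callus of control and diabetic rats, as the 2 mature miRNAs cut from its hairpin, rno-miR-210-3p and rno-miR-210-5p (miR-210-3p and miR-210-5p below). They were found by their names among the 727 rat miRNA probes of a one-colour array, and each had 1 spot on each of 4 arrays. A callus is the new tissue that forms at a fracture and joins the broken ends. All animals were male Sprague-Dawley rats aged 12 weeks with a closed transverse fracture of the right femoral shaft, made over an intramedullary wire. Diabetes was induced with streptozotocin, which kills pancreatic beta cells, given once into a vein at 40 mg/kg, and these rats had a blood glucose above 300 mg/dl. Controls were sham-injected with sodium chloride and had a normal blood glucose. The injected toxin and the diabetes that followed it cannot be told apart in this design. With harvests on days 5 and 11 of healing there were 4 groups, each a single pool of callus from 5 animals on a single array. With n = 1 array per group, the spread between animals was not measured and no p-value is given.

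miR-210 is the best-known hypoxia-responsive miRNA. In human and rodent cells its gene is switched on by the transcription factor HIF1A, which accumulates when oxygen is low, and its 3p arm is loaded into the silencing complex as the main product. Targets described for miR-210-3p in human cells include the iron-sulphur cluster scaffold ISCU, through which it lowers mitochondrial respiration, and the ephrin EFNA3, which acts in vessel growth. Bone repair by endochondral ossification passes through cartilage, a tissue without vessels in which chondrocytes depend on HIF1A, before vessels and bone replace it.

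The sequences of both arms are shown because the array measures them separately and because they do not share a seed, the bases 2 to 8 that choose the targets, printed here in capitals. The third sequence, miR-3574, is shown because it is read from the opposite strand of the same site.
miR-210-3p: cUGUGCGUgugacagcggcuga
miR-210-5p: aGCCACUGcccacagcacacug
miR-3574: uCAGCCGCugucacacgcacag
In the hairpin, printed below 5′ to 3′, the capitals mark the 5p arm (bases 28 to 49) and the 3p arm (bases 66 to 87), with 16 bases between them.
Mir210 hairpin: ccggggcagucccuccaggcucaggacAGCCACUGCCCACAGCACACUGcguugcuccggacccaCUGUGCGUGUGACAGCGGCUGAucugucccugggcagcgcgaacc

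The sequences are those of RefSeq on the GRCr8 build, where the hairpin lies on the minus strand at chr1:205755923-205756032. The 3p arm lies at chr1:205755946-205755967 and the 5p arm at chr1:205755984-205756005. In RefSeq the hairpin overlaps the long non-coding RNA gene LOC102553043, which is read from the same strand. The nearest protein-coding genes on its sides are Rassf7 and Phrf1. Whether the hairpin falls in an exon or an intron of that gene was not analysed here. Each arm is 22 bases long with a GC content of 63.6%. Of 693 mature miRNA names in the RefSeq table, 0 others had the seed of either arm. The longest run of bases that miR-210-3p shared with any of the 652 other array miRNAs that had a RefSeq sequence was 8 bases, with miR-122-5p, miR-293-5p and miR-542-3p. For miR-210-5p it was 10 bases, with miR-497-5p. The sequences of the array's probes were not used here.

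Levels are blank-corrected intensities. The mean of the 1504 blank spots was subtracted from the spot, and each array was scaled so that the 400 miRNAs detected on all 4 arrays had a median of 100. A miRNA was detected where its spot lay more than 2 SDs of the blank spots above their mean, which held for 482 to 560 of the 727 miRNAs per array. The ± values are technical errors on the log2 scale, from the spread of spike-control spots within an array and of the blank spots. They do not include how animals, pools or hybridisations vary. Because the intensity of a probe depends on its sequence, levels are compared between arrays and not between probes. Spike control 1 had a mean intensity of 14528 on the array of diabetic callus from day 11, the dimmest, and of 31916 to 36103 on the other 3. As a check of the labelled tissue, all 6 cartilage, 5 skeletal muscle and 3 mesenchymal miRNAs listed as markers were detected on each array, while 1 to 5 of 7 epithelial ones were, with a summed level of at most 173.

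miR-210-3p was detected on all 4 arrays, and its level ran from 92.8 to 546. It was 145 in control callus on day 5, 28.9 blank SDs above the blank mean. In diabetic callus on day 5 the level was 92.8, at 16.6 blank SDs. On day 11 it was 546 in control callus and 263 in diabetic callus, at 95.3 and 44.4 blank SDs. The level was thus higher on day 11 than on day 5 in both groups, and lower in diabetic than in control callus on both days. With 1 array per group, whether the groups overlap cannot be seen. Next to each other in this order, control day 11 exceeded diabetic day 11 by 1.05 ± 0.11 (log2), diabetic day 11 exceeded control day 5 by 0.86 ± 0.11, and control day 5 exceeded diabetic day 5 by 0.64 ± 0.15. Each of these steps was more than 4 times its technical error. Fewer cells that make miR-210 and less miR-210 per cell cannot be told apart in such pooled tissue.

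**Figure D1:**
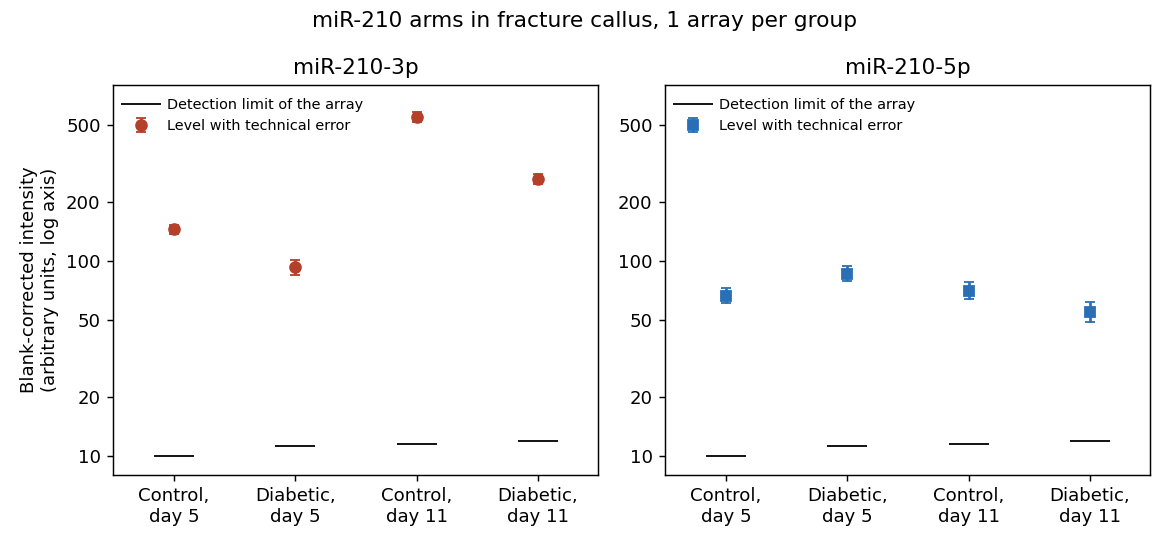
Blank-corrected intensity (arbitrary units, log axis) of miR-210-3p (left) and miR-210-5p (right) on the 4 arrays. Points are single arrays, bars are the technical error and black dashes are the detection limit of the array. miR-210-3p runs from 92.8 to 546 and is highest in control callus on day 11, and miR-210-5p stays between 54.8 and 86.1.

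Over the 4 arrays the highest level of miR-210-3p was 5.88-fold the lowest. Among the 400 miRNAs detected on all arrays the median of this ratio was 1.71, and 3 had a wider range. These were the neutrophil and monocyte miRNA miR-223-3p (9.49-fold) and both arms of the chondrocyte miRNA miR-140, miR-140-5p (8.50-fold) and miR-140-3p (8.07-fold).

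The effect of diabetes was compared on each day. On day 11 miR-210-3p was 2.08-fold lower in diabetic callus, at 263 against 546, a log2 difference of -1.05 ± 0.11. It was 1 of 21 miRNAs (4.85%) that were at least 2-fold lower among the 433 detected on both arrays, of which 17 (3.93%) were at least 2-fold higher and 38 (8.78%) were 2-fold different either way. Counted from the most lowered miRNA it stood in place 20, and the median difference of all 433 was 0.034. Over the 9 ways of processing its place ran from 6 to 59, the last with the local background subtracted. Ways that differ only in 1 factor per array give the same places, and the same differences relative to the median, by construction. Only normexp with quantile normalisation and subtraction of the local background can move these. On day 5 it was 1.56-fold lower, at 92.8 against 145, a log2 difference of -0.64 ± 0.15. This lay short of 2-fold, which 12 miRNAs (2.56%) reached downwards, 20 (4.27%) upwards and 32 (6.84%) either way among 468, and miR-210-3p stood in place 33 from the lowest (14 to 33 over the 9 ways). The difference between the days, diabetic minus control on day 11 minus the same on day 5, was -0.41 ± 0.19, and 44.0% of the 400 miRNAs had one at least as far from 0. It was not tested, and it was 0.0061 when the local background of each spot was subtracted in place of the blank mean.

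Other measures of the same arrays also differed on day 11. All 6 cartilage miRNAs were lower in diabetic callus on day 11, 5 of them at least 2-fold, and their summed level was 5825 against 18426 in control callus. The day 5 sums were 2756 for diabetic and 2512 for control callus. The part of cartilage content in the difference of miR-210-3p was not tested. Around the miR-210-3p spot of control callus on day 11 the local background was 372, which is 45.8% of the spot, where the blank spots had a mean local background of 97.7. On the other arrays the local background was 30.7% (control day 5), 47.0% (diabetic day 5) and 32.3% (diabetic day 11) of the spot. With the local background subtracted, the day 11 difference was -0.69, short of 2-fold.

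The course of healing was compared by day 11 against day 5 in each group. In control callus miR-210-3p was 3.76-fold higher on day 11, at 546 against 145, a log2 difference of 1.91 ± 0.11. It was 1 of 31 miRNAs (6.95%) at least 2-fold higher among 446, with 31 (6.95%) lower and 62 (13.9%) either way, and stood in place 6 from the highest (4 to 11 over the 9 ways of processing). The 4 arms of the cartilage miRNAs miR-140 and miR-455 and miR-182 were above it. In diabetic callus miR-210-3p was 2.83-fold higher on day 11, at 263 against 92.8, a log2 difference of 1.50 ± 0.15. Here 17 miRNAs (3.83%) were at least 2-fold higher among 444, 36 (8.11%) lower and 53 (11.9%) either way, and miR-210-3p stood in place 5 (1 to 7 over the 9 ways). Marker lists of other tissues and cells differed over the same days, some upwards and some downwards. The summed level of 5 skeletal muscle miRNAs was 28356 on day 5 and 9412 on day 11 in control callus, and 29676 and 9999 in diabetic callus. That of 4 leukocyte miRNAs was 8383 and 1230 in control callus, and 5092 and 1479 in diabetic callus. The 2 endothelial miRNAs summed to 6973 and 3951 in control callus, and to 5492 and 4160 in diabetic callus. The 3 mesenchymal miRNAs summed to 20153 and 24894 in control callus, and to 20851 and 30095 in diabetic callus. The 3 erythroid miRNAs, of which 2 to 3 were detected per array, summed to 514 on day 5 and 1599 on day 11 in control callus, and to 1460 and 1559 in diabetic callus. Both erythroid miRNAs detected on all arrays were thus at least 2-fold higher on day 11 in control callus, in the direction of miR-210-3p, and at least 2-fold higher in diabetic than in control callus on day 5, in the opposite direction to it. In that day 5 comparison all 4 leukocyte (median -0.55) and both endothelial miRNAs (median -0.32) were lower, in the direction of miR-210-3p. There 4 of 5 skeletal muscle and 3 of 3 mesenchymal miRNAs were higher, with medians of 0.052 and 0.057. Some of these differences changed with normexp on the local background and quantile normalisation. Over time in control callus the erythroid miR-451-5p was then at -2.27 (log2) and miR-144-3p at 0.22, against 1.62 and 1.85 with blank subtraction. The mesenchymal median over time was then -0.25 in control and 0 in diabetic callus, against 0.32 and 0.50. The skeletal muscle, leukocyte and endothelial medians over time stayed below 0 in both groups. The part of these tissues and cells in the differences of miR-210-3p was not tested. These comparisons use the same 4 arrays as those between diabetic and control callus, so the 4 differences are not independent of each other.

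**Figure D2:**
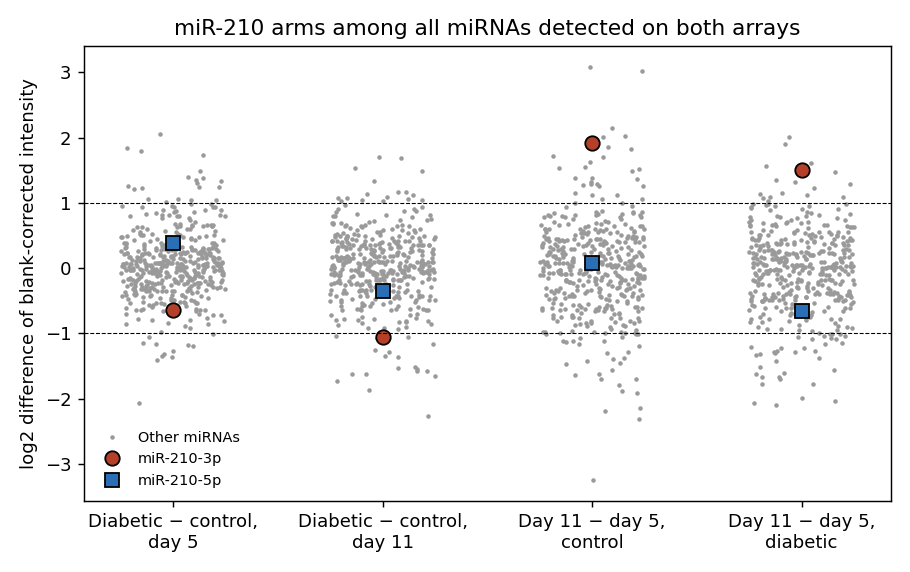
log2 difference of blank-corrected intensity for every miRNA detected on both arrays of a comparison (grey, 433 to 468 miRNAs), with miR-210-3p (red circle) and miR-210-5p (blue square). Dashed lines mark 2-fold. miR-210-3p lies at -0.64, -1.05, 1.91 and 1.50, and miR-210-5p within 2-fold in all 4 comparisons.

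The other arm, miR-210-5p, is the strand of the duplex that is mostly discarded. On day 5 control callus had a level of 66.3 and diabetic callus one of 86.1. On day 11 the levels were 70.2 (control) and 54.8 (diabetic). It was 9.24 to 15.4 blank SDs above the blank mean, so that it was detected on all arrays. It was highest in diabetic callus on day 5 and lowest in diabetic callus on day 11. Neighbours in the order of its levels differed by 0.083 to 0.30 (log2), at most 1.50 times their technical error, and are not separated by these data.

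The diabetic minus control difference of miR-210-5p was 0.38 ± 0.18 on day 5 and -0.36 ± 0.22 on day 11. From day 5 to day 11 it differed by 0.083 ± 0.19 in control callus and by -0.65 ± 0.22 in diabetic callus. None of these 4 differences reached 2-fold. Its range over the 4 arrays was 1.57-fold, and 235 of the 400 miRNAs had a wider one. In control callus on day 11 its local background came to 72.8% of the spot. With that background subtracted the day 11 difference was 0.070 and the difference over time in control callus was -0.33, both of the opposite sign.

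Both arms come from 1 hairpin, and their differences could be set against each other within the arrays, where the scaling cancels. From day 5 to day 11 the difference of the 3p arm minus that of the 5p arm was 1.83 ± 0.22 (log2) in control callus. In diabetic callus, where the 5p arm was lower on day 11 (-0.65), this gap was 2.16 ± 0.27. The arrays held 265 miRNAs with a probe for each arm, of which 91 had both arms detected on all 4 arrays. In both comparisons the gap of miR-210 was the widest of these 91 with blank subtraction, where the median gap was 0.45 in control and 0.35 in diabetic callus without regard to sign. Over all 9 ways of processing it held place 1 to 3 in control and 1 to 2 in diabetic callus. The ways that differ only in 1 factor per array share the same gaps by construction, so they are not separate checks. In diabetic against control callus on day 5 the 3p arm was lower (-0.64) and the 5p arm higher (0.38). On day 11 both arms were lower with blank subtraction (-1.05 and -0.36). The gaps were -1.02 ± 0.24 on day 5 (place 5 from the lowest) and -0.70 ± 0.25 on day 11 (place 11). Over all 9 ways of processing these gaps ran from -1.26 to -0.62 (places 1 to 5) on day 5 and from -1.14 to -0.70 (places 1 to 18) on day 11. Arms that differ in opposite directions were common among the 91. The share with both arms in 1 direction was 49.5 to 65.9% over the 4 comparisons.

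**Figure D3:**
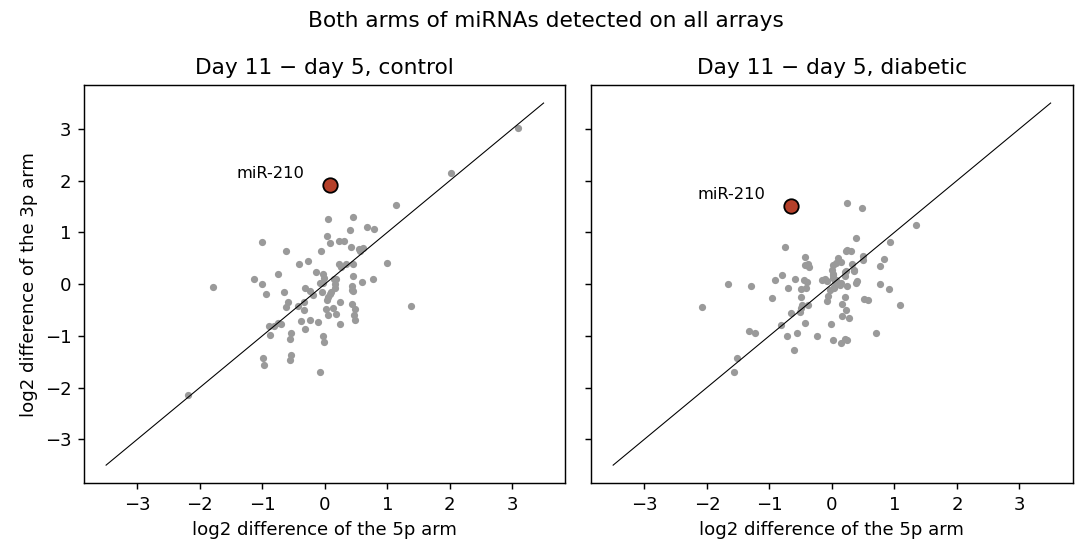
Difference from day 5 to day 11 of the 5p arm (x axis, log2) and of the 3p arm (y axis, log2) in control callus (left) and diabetic callus (right), for 91 miRNAs with both arms detected on all arrays. The line marks equal differences. miR-210 (red) lies 1.83 above the line in control and 2.16 above it in diabetic callus.

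The miRNAs whose pattern over the 4 arrays was most like that of miR-210-3p were found by the distance between log2 levels, each centred on its own mean, among the 399 other miRNAs detected on all arrays. The 6 nearest were miR-322-3p (distance 0.71), miR-129-2-3p (0.75), miR-140-3p (0.82), miR-140-5p (0.84), miR-455-3p (0.86) and miR-1298 (0.87), against a median of 2.00. Of these 6, both arms of miR-140 and miR-455-3p belong to the cartilage list. The rest of that list stood in places 8 (miR-455-5p), 70 (miR-675-5p) and 261 (miR-675-3p, distance 2.22) of 399. The level of miR-322-3p was 235 (control) and 191 (diabetic) on day 5, and 573 and 353 on day 11. miR-129-2-3p was dim, at 11.7 and 12.4 on day 5 and 38.0 and 30.1 on day 11, in the same order. The likeness depended on the processing. With normexp on the local background and quantile normalisation, changed together, 0 of these 6 were among the nearest 6, and their places ranged from 11 (miR-1298) to 99 (miR-129-2-3p). For miR-210-5p the 6 nearest were miR-3120, miR-186-5p, miR-664-1-5p, miR-33-5p, miR-3572 and miR-29a-5p, at distances of 0.20 to 0.22, and again 0 of them remained under normexp.

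**Figure D4:**
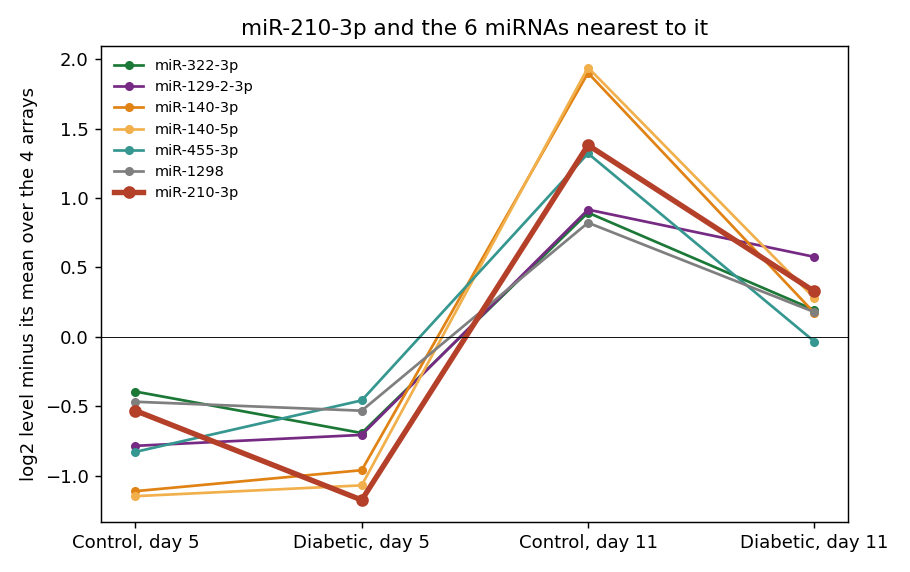
log2 level of miR-210-3p (thick red) and of the 6 miRNAs nearest to it, each minus its own mean over the 4 arrays. All 7 are highest in control callus on day 11. miR-210-3p is 0.64 lower in diabetic than in control callus on day 5.

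With blank subtraction miR-210-3p differed in the direction of all 6 cartilage miRNAs between the groups on day 11 and over time in control callus. It differed in the direction of 5 of the 6 over time in diabetic callus, and in the opposite direction to most of them on day 5. In control callus the 3.76-fold higher level on day 11 stood beside 8.50-fold for miR-140-5p, 8.07-fold for miR-140-3p, 4.44-fold for miR-455-3p and 4.05-fold for miR-455-5p. In diabetic callus the 2.83-fold higher level stood beside 2.55-fold, 2.19-fold, 1.34-fold and 1.11-fold for the same miRNAs. miR-140 is hosted by the gene Wwp2 and is abundant in chondrocytes, and miR-455 is hosted by the collagen gene Col27a1. The remaining members, the arms of miR-675 that are cut from the H19 transcript, were at 0.24 (miR-675-5p) and -1.09 (miR-675-3p) on the log2 scale in diabetic callus. Over time 6 of 6 were higher in control callus under all 9 ways of processing, and 2 to 5 of 6 in diabetic callus. Relative to the median of all miRNAs, the list's median in diabetic callus was 0.17 to 0.40 over the 9 ways. The median of the 6 was 2.08 in control and 0.33 in diabetic callus. Between diabetic and control callus on day 11 it was -1.46, with 6 of 6 lower under all 9 ways of processing. On day 5 it was 0.11, with 4 of 6 higher (2 to 6 over the 9 ways of processing), where miR-210-3p was at -0.64. These differences from miR-210-3p were not tested.

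A list of 15 other miRNAs widely reported as raised in hypoxic cells was set beside miR-210-3p. Diabetic minus control on day 11, 8 of them were higher and 7 lower, 0 reached 2-fold, and the median was 0.017. Among all 433 miRNAs 52.7% were higher, 8.78% were 2-fold different either way and the median was 0.034. Over the 9 ways of processing 0 to 13 of the 15 were higher on day 11 and 4 to 14 on day 5, counts that move with the scaling of an array. Relative to the median of all miRNAs, the list's median was -0.017 to 0.42 on day 11 and 0.065 to 0.31 on day 5. On day 5, 10 of the 15 were higher and 5 lower, again with 0 at 2-fold, and the median was 0.10. Among all 468 miRNAs 54.9% were higher, 6.84% were 2-fold different either way and the median was 0.038. Over time in control callus 11 of 15 were higher on day 11 (9 to 11 over the 9 ways of processing), with a median of 0.61 beside 0.028 for all 446 miRNAs, of which 52.7% were higher. That median was 0.21 with normexp on the local background. Those at least 2-fold higher, beside 6.95% of all 446 miRNAs, were miR-181a-5p (2327 against 826), miR-181b-5p (293 against 122) and miR-181c-5p (154 against 69.4). All are of the miR-181 family, which is also studied in lymphocytes. None of the 3 reached 2-fold with normexp on the local background, where their differences were 0.80, 0.21 and 0.65 (log2). In diabetic callus 10 of 15 were higher on day 11 (1 to 14 over the 9 ways of processing), with a median of 0.43, and 1 reached 2-fold, miR-181c-5p. Among all 444 miRNAs 50.2% were higher, 3.83% were at least 2-fold higher and the median was 0.0065. Relative to the median of all miRNAs, the list's median over time was 0.15 to 0.58 in control callus over the 9 ways. In diabetic callus it was 0.22 to 0.48. The miRNA miR-322-5p, the rodent form of human miR-424, which is described as stabilising HIF1A, was 1.37-fold higher over time in control and 1.31-fold higher in diabetic callus.

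The 5 miRNAs listed as targeting HIF1A or falling in hypoxia were miR-17-5p, miR-18a-5p, miR-20a-5p and miR-20b-5p, which belong to clusters active in dividing cells, and miR-199a-5p, a miRNA of mesenchymal cells. In control callus 4 of 5 were lower on day 11, 3 of them at least 2-fold, beside 47.3% lower and 6.95% at least 2-fold lower among all 446 miRNAs. miR-18a-5p was at 59.1 against 192, miR-17-5p at 667 against 1452 and miR-20b-5p at 508 against 1024. miR-199a-5p was at 7499 against 6268. With normexp on the local background and quantile normalisation miR-18a-5p was still past 2-fold at -1.17 (log2), miR-17-5p was at -0.68 and miR-20b-5p at 0.066, while miR-199a-5p was at -1.61, so that miR-20b-5p and miR-199a-5p had the opposite sign. In diabetic callus 4 of 5 were lower on day 11, beside 49.8% of all 444 miRNAs, and 0 reached 2-fold. Diabetic minus control on day 11, 5 of 5 were higher, beside 52.7% of all 433 miRNAs. Their median was 0.55, in the opposite direction to miR-210-3p, and 0 reached 2-fold. Without scaling 0 of 5 were higher there, where the median of all miRNAs was -1.30, and relative to the median of all miRNAs the list's median was 0.34 to 0.77 under all 9 ways of processing. On day 5 their median was 0.057. The comparison over time in control callus and that between the groups on day 11 share 1 array, that of control callus on day 11.

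The order of the miR-210-3p levels, with control day 11 first, then diabetic day 11, control day 5 and diabetic day 5, was found under 8 of 9 ways of processing. The exception was the intensity without scaling, where the dim diabetic day 11 array fell below control day 5. Relative to the median of all miRNAs on the same arrays, miR-210-3p was lower in diabetic callus by -1.09 to -0.66 (log2) on day 11 and -0.75 to -0.45 on day 5, and higher on day 11 by 1.28 to 1.88 in control and 0.89 to 1.50 in diabetic callus. A factor per array cancels in these values, so the scaling alone cannot change them. The order of miR-210-5p was found under 6 of 9.

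**Figure D5:**
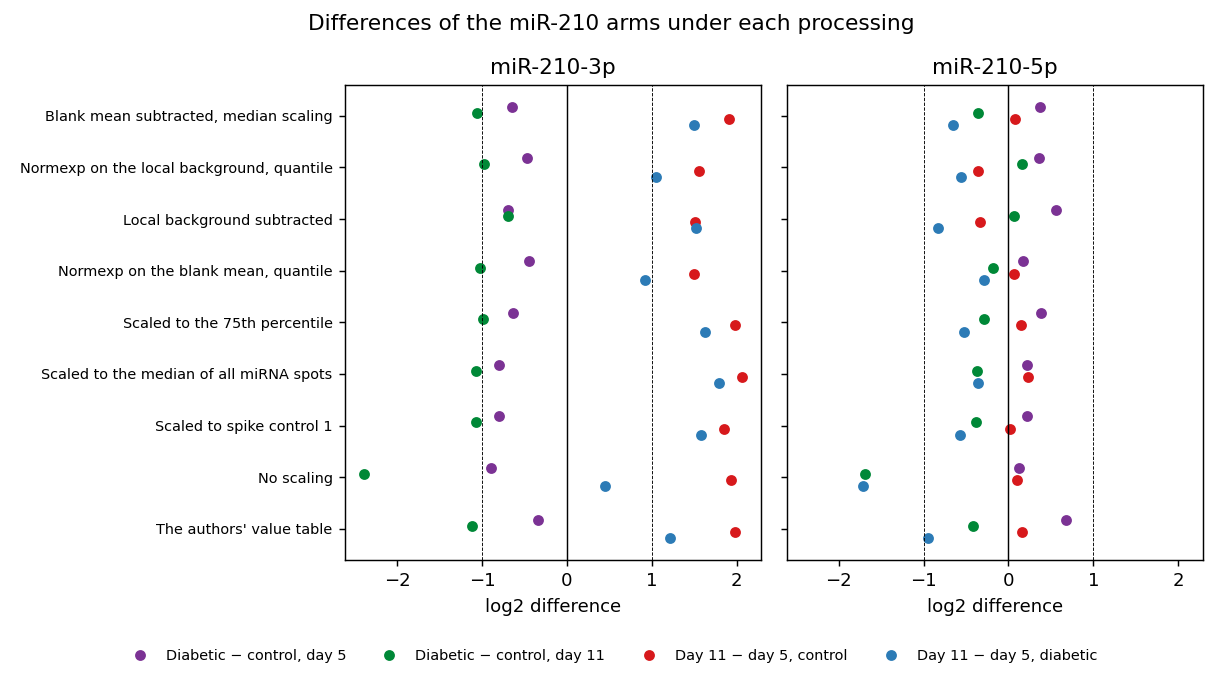
log2 difference of miR-210-3p (left) and miR-210-5p (right) in the 4 comparisons (colours) under each way of processing (rows), with solid lines at 0 and dashed lines at 2-fold. The differences of miR-210-3p keep their sign in all rows, from -2.39 to 2.06, and those of miR-210-5p on day 11 and over time in control callus change sign where the local background is used.

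The miRNA miR-3574 is annotated on the plus strand of the same site, and its mature sequence, printed above, is the exact reverse complement of miR-210-3p at the same coordinates. It was not above the detection limit in control callus on day 5, control callus on day 11 or diabetic callus on day 11, where its spot was 0.60, -0.66 and 1.28 blank SDs from the blank mean. In diabetic callus on day 5 it was detected at a level of 26.5, 4.73 blank SDs above the blank mean, where the detection limit was 11.2. The local background was 67.2% of that spot. miR-210-3p was lowest on that array. On the control day 11 array, where miR-210-3p was highest, the miR-3574 spot was below the blank mean. On the remaining arrays miR-210-3p was at 263 (diabetic day 11) and 145 (control day 5), and the miR-3574 spots at 1.28 and 0.60 blank SDs. Because miR-3574 was detected only in diabetic callus on day 5, its order over the other arrays cannot be read from these spots. With normexp on the local background miR-3574 was highest in diabetic callus on day 11, at 6.62 (log2) against 6.45 on day 5. No relation between the miRNAs was tested.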

How the data were processed

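Pooled callus RNA was labelled with Cy5 and hybridised to 3D-Gene arrays by the maker, per the labels' protocols. The deposited scanner files hold the median intensity of each spot and of its local background at 635 nm, joined from 3 gains and not background-subtracted, per the file headers. How the authors made their deposited value table (intensity) is not given in the sources used here. Set against the scanner files, its values were the spot minus the blank mean times 1 factor per array (largest deviation 0.114%), with a median of 25 per array.

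The blank mean and SD left out the highest and lowest 5% of blank spots. Blank subtraction was preferred to normexp on the local background because that background followed the spot: the correlation of their log2 values over miRNA probes was 0.76 to 0.95, and of the 260 bright spots for control callus on day 11 (10 or more blank SDs over the blank mean) 132 had a background of 50% of the spot or more. Normexp (offset 50) and quantile normalisation were run with limma 3.58.1 in R 4.3.3, the rest in Python 3.11.15. Blank subtraction and median scaling were tested on simulated data, for the difference between diabetic and control callus on day 11. Only miRNAs detected on both simulated arrays and with a control level over 50 were scored. The other steps, detection among them, were not tested in this way. The technical error combined the pooled log2 SD of 2 spike controls with 8 spots each (0.057 to 0.096) with the blank SD, and 1 spike spot marked as not usable was left out. Differences were counted at 2-fold, and no test was made, with 1 array per group. The number of arrays limits the precision.

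The members, lists and alternatives were chosen with earlier results of these data known. The miRNAs named are both arms, members of the fixed hypoxia, HIF1A and marker lists, and the 6 nearest in pattern to each arm. Those with a wider range or a higher place than miR-210-3p were named after their values were seen.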

Additional observations from a re-analysis of the deposited data

Results flagged for a closer look

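With blank subtraction miR-210-5p differed in opposite directions in the groups compared. Diabetic minus control it was 0.38 (log2) on day 5 and -0.36 on day 11. From day 5 to day 11 it was 0.083 in control and -0.65 in diabetic callus. With 1 array per group neither contrast between these differences was tested, and 0.083 is 0.44 times its technical error. The opposite directions depended on the processing. With normexp on the local background the values were 0.36 (day 5) and 0.16 (day 11), and -0.36 (control) and -0.56 (diabetic) over time. With the local background subtracted they were 0.56 and 0.070, and -0.33 and -0.83. The signs within each pair were then the same.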

How the results depend on the processing

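The 4 differences of miR-210-3p between arrays kept their sign under the 8 alternatives, and its difference between the days did not. The former were at least 2-fold under 8 of 8 over time in control callus, 6 of 8 over time in diabetic callus, 5 of 8 between the groups on day 11 and 0 of 8 on day 5. All values here are log2 differences or counts of miRNAs, the comparisons are named by day (diabetic minus control) or by group (day 11 minus day 5), and except where stated the cause of a change was not tested. With normexp on the local background, miR-210-3p was at -0.47 (day 5), 1.56 (control) and 1.05 (diabetic), and miR-210-5p at 0.16 (day 11) and -0.36 (control), both reversed, with -0.20 between the days. Then 2 miRNAs were 2-fold different on day 5 and 16 in diabetic callus, against 32 and 53, and 0 of the 6 nearest miRNAs remained for either arm. With the local background subtracted, miR-210-3p was at -0.69 (day 11), 1.51 (control) and 0.0061 between the days (reversed), and miR-210-5p at 0.56 (day 5), 0.070 (day 11) and -0.33 (control), the latter pair reversed. The counts were 21 (day 5), 61 (day 11, against 38) and 31 (diabetic). With normexp on the blank mean, miR-210-3p was at -0.45 (day 5), 1.50 (control) and 0.92 (diabetic), and miR-210-5p at 0.17 (day 5), -0.29 (diabetic) and -0.36 between the days. The counts were 1, 8, 24 (control, against 62) and 15. Scaled to the median of all miRNA spots, where the median of all miRNAs was at -0.12 (day 5), 0.18 (control) and 0.30 (diabetic), miR-210-3p was at -0.80 (day 5), 2.06 (control) and 1.79 (diabetic), and miR-210-5p at -0.36 (diabetic). Scaled to spike control 1, miR-210-3p was at -0.80 on day 5. Without scaling, where the median of all miRNAs was at -0.22 (day 5), -1.30 (day 11) and -1.05 (diabetic), miR-210-3p was at -0.90, -2.39 and 0.45 with -1.49 between the days, and miR-210-5p at 0.12, -1.69 and -1.71 with -1.82. The counts were 318 (day 11) and 247 (diabetic). In the authors' value table, with that median at 0.34 (day 5) and -0.29 (diabetic), miR-210-3p was at -0.34 and 1.21 with -0.77 between the days, miR-210-5p at 0.68 and -0.95 with -1.10, and the count on day 5 was 52. A detection limit of 3 blank SDs gave 19 on day 5, and no limit gave 152, 144, 163 and 173. Scaling moved the split into higher and lower. On day 5 it was 20 and 12, but 15 and 17 by the median of all spots or the spike, 11 and 23 unscaled, and 47 and 5 in the authors' table. On day 11 it was 17 and 21, but 0 and 318 unscaled. In control callus it was 31 and 31, but 37 and 21 by the median of all spots. In diabetic callus it was 17 and 36, but 28 and 27 by the 75th percentile, 44 and 18 by the median of all spots, 25 and 29 by the spike, 0 and 247 unscaled, and 8 and 62 in the authors' table. No paired analysis was possible because each group had 1 array and the labels give no replicate numbers. No array could be left out for the same reason. The technical error of a level was 0.12 to 0.17 for miR-210-5p, at 9.24 to 15.4 blank SDs above the blank mean, and 0.076 to 0.13 for miR-210-3p, at 16.6 to 95.3.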
